A study of Mus musculus with 12 samples.

Results

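Cell cycle and DNA replication genes were examined in adrenal RNA of mice that carry extra copies of Ftz-F1 (Nr5a1, the gene of the nuclear receptor SF-1). The members were a list of 49 names, matched by symbol to the probes of the array through the platform's annotation, and 46 of the 18617 genes named by a single-gene probe were members. Gins2 and Ccnb1 had no probe, nor had the older name Cdc2a, whose gene was present as Cdk1. Mcm5 had a value on only 5 of the 12 arrays and on both arrays of no pair, so 45 members entered the tests, among 21511 features of which 17880 were named genes.

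RNA of adrenal glands from the yeast artificial chromosome transgenic line #56 was hybridised on 2-colour arrays with RNA of a wild-type littermate matched for sex and age. Each pair had 2 arrays with exchanged dyes and takes its name from the number given to its transgenic mouse. Pairs 11, 13 and 15 were 10 days old and the transgenic mice carried 1 copy of the transgene. Pairs 1, 3 and 5 were 4 months old and the transgenic mice carried 2 copies. Pairs 15 and 5 were female and the others male. Age and copy number change together and cannot be told apart, and all transgenic mice belong to a single line. The pair is the replicate (n = 3 per group), and p-values measure the spread between pairs, taken as common to both groups. In RNA of a whole gland, fewer cells of a type and less RNA per cell cannot be told apart.

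The sources used here do not say whether transgenic or wild type is the numerator of the deposited log2 ratios, so every sign below is the sign of the deposited ratio and says nothing on which genotype had more transcript. The columns did run the same way: with the mean of arrays of the same dye orientation removed, correlation across probes was 0.23 to 0.66 between the 2 arrays of a pair, and -0.28 to 0.12 between opposite-dye arrays of different pairs (30 combinations). The ratio of Nr5a1 itself was -0.57, -0.65 and -0.79 in pairs 11, 13 and 15 and -0.46, 0.11 and -0.22 in pairs 1, 3 and 5. Whether its probe detects the transgene's transcript is not given, and its sign was not used to settle the direction. Of the defining markers, all 8 of the adrenal cortex and all 6 of chromaffin cells that had a probe gave values on all 12 arrays.

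Before a cell divides, the hexameric MCM helicase is loaded on replication origins by Cdc6 and Cdt1 and is then joined by Cdc45 and the GINS complex to open the DNA. Polymerases, the sliding clamp Pcna and its loader copy the strands, and ribonucleotide reductase supplies the nucleotides. Mitosis genes condense, attach and separate the chromosomes. E2F factors drive many replication genes, and the MuvB complex, which reads the CHR element, governs many mitosis genes. In the adrenal cortex, dividing cells lie mainly under the capsule and feed the steroid-producing zones, and SF-1 is required for the gland to form.

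The promoters of the members were searched for E2F and CHR elements and, apart from these, for the letters CCAAT. RefSeq's table for GRCm38.p6 held the 250 bases before at least 1 start site for 38 of the 49 names, and a gene was counted where any of its promoters held a match. Both strands were searched for E2F letters (TTTCCCGC, TTTGGCGC, TTTCGCGC or TTTGCCGC), for the CHR letters TTTGAA and for CCAAT. The E2F letters were found for 8 of the 38 genes, Cdc6, Cdk1, Cdk2, Mcm5, Mcm6, Mcm7, Pola1 and Rfc3, and for 2.16% of all 27025 genes in the table (1.86% of its 32851 promoters). Of these members, 6 were among the 18 replication genes matched and 1 among the 16 mitosis genes. CHR letters were found for 3 of the 18 and 7 of the 16, and for 18.3% of all genes (16% of promoters). CCAAT was found for 12 of the 18 and 14 of the 16, and for 37.5% of all genes (33.8% of promoters). Below are the promoters of Mcm3, Mcm6 and Mcm7, the members with the lowest ratios, of Mcm2, a helicase gene whose ratio was above 0 in pair 3, and of Top2a, a mitosis gene with a negative ratio in all 6 pairs. Each runs 5′ to 3′ on the strand of its gene, which is the minus strand for all of them, and capitals mark a match to any of the motifs on either strand. A match is a run of letters and not a measured site.
Mcm3: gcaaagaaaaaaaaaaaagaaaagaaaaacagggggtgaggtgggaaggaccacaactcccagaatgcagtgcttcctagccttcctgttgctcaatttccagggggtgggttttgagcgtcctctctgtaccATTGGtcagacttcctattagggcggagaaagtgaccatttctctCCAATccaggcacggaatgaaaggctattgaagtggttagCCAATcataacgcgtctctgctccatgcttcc
Mcm6: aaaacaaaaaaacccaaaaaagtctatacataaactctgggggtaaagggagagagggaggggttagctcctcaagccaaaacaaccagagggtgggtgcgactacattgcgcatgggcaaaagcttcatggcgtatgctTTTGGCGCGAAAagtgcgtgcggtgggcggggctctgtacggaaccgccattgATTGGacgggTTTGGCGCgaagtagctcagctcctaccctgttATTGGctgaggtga
Mcm7: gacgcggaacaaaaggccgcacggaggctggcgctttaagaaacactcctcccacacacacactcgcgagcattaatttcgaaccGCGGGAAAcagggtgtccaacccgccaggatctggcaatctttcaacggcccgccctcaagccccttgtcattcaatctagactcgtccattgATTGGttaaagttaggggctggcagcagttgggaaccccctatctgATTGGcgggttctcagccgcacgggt
Mcm2: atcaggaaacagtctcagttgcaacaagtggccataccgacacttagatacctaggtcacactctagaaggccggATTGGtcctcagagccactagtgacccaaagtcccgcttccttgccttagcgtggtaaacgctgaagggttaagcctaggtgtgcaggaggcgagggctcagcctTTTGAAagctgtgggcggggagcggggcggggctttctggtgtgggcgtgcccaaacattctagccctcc
Top2a: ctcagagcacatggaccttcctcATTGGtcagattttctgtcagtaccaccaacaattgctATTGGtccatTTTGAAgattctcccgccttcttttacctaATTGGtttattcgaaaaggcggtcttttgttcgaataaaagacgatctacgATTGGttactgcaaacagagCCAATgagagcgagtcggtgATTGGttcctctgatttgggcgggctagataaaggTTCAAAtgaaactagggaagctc
These windows lie at chr1:20820313-20820562 for Mcm3, chr1:128359706-128359955 for Mcm6, chr5:138171884-138172133 for Mcm7 (the first of its 2 listed starts), chr6:88898781-88899030 for Mcm2 and chr11:99024190-99024439 for Top2a. Mcm6 has 3 E2F matches, at -110, -106 and -47 from the start, of which the first 2 overlap, and Mcm7 has 1 at -165. Mcm3 has none of these letters in its window, and 3 CCAAT matches at -117, -72 and -32. Mcm2 has 1 CHR match at -70 and Top2a has 2, at -179 and -23, beside 6 CCAAT matches.

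No cell cycle member passed an adjusted p of 0.05 in any comparison, and most members had a negative ratio in each group after the dye-trend correction and averaging of the dye-swapped arrays. At 4 months 35 of the 45 members had a negative ratio (77.8%, against 52.0% of all features), with a median of -0.14 against -0.01 for all features. At 10 days 29 were negative (64.4%, against 51.4%), with a median of -0.07 against -0.01. This count depended on dye: on Cy3 arrays alone (transgenic sample in Cy3) 20 of 46 members were negative at 10 days (43.5%, against 51.1% of all features) and 40 at 4 months (87.0%, against 50.6%). On Cy5 arrays alone 31 of 45 were negative at 10 days (68.9%, against 49.6%) and 24 at 4 months (53.3%, against 50.3%). In the uncentred values as deposited 15 of 45 were negative at 10 days and 8 at 4 months, where 18.6% and 7.29% of all features were. Members of the licensing step were the lowest at 4 months, led by Mcm3 and Mcm6, and much of that came from pair 3. Mitosis genes had a small negative median in every pair.

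The test was limma on the pair values, two-sided, with Benjamini-Hochberg adjustment over all features. At 10 days it called 0 of the 45 members and 0% of all features, and at 4 months again 0 members and 0% of features. Over all 6 pairs it called 12 features (0.0558%) and no member. For the difference of the group means it called 0% of features. At an unadjusted p under 0.05 there were 2 members at 10 days (4.44%, against 8.33% of all features), Rfc4 and Top2a. At 4 months there were 11 members (24.4%, against 12.3%), all with negative ratios: Mcm3, Mcm4, Mcm7, Cdc6, Ccnd1, Cdc20, Aurkb, Bub1b, Top2a, Kif11 and Cenpa. Over all 6 pairs there were also 11 (24.4%, against 15.0%), all negative, with Rfc4 in place of Mcm4. For 4 months minus 10 days there was 1, Mcm3 (2.22%, against 4.57%). Without pair 3 the 4-month count was 3 members (6.67%, against 8.75% of all features), and the count over the other pairs was 6, of which 5 were negative (13.3%, against 13.2%). An ordinary linear model without moderation gave 5 members at 4 months (11.1%, against 10.6%) and 7 over all pairs (15.6%, against 13.1%). Leaving out dim and near-saturated probes gave 8 of 42 members at 4 months (19.0%, against 13.1%) and 11 over all pairs (26.2%, against 16.1%).

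Replication and mitosis genes were set side by side through their medians in each pair. The replication group has 20 tested genes, of licensing, synthesis and nucleotide supply, and its median was -0.01, 0.04 and -0.10 in pairs 11, 13 and 15 and -0.05, -0.44 and -0.12 in pairs 1, 3 and 5. The mitosis group has 19 tested genes, and its median was -0.10, -0.09 and -0.17 at 10 days and -0.21, -0.20 and -0.09 at 4 months. All features had a median between -0.01 and 0.00 in each pair. Mitosis medians were therefore negative in 6 of 6 pairs. Those of the replication group were negative in 5, with pair 3 far below the rest and pair 11, at -0.01, within the range of all features.

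The replication median minus the mitosis median was 0.10 ± 0.03 at 10 days and -0.04 ± 0.20 at 4 months (SD, n = 3). In the single pairs it was 0.09, 0.14 and 0.07 at 10 days and 0.16, -0.24 and -0.03 at 4 months. Pair 1 lies above all 10-day pairs and pairs 3 and 5 below them, so the 2 groups overlap. Over genes, the spread in pair 3 was an SD of 0.84 for the replication group, 0.32 for the mitosis group and 0.46 for all features. Taken alone, the Mcm, Pcna and Rrm genes had medians of 0.08, -0.06 and -0.23 at 10 days and 0.05, -0.65 and -0.32 at 4 months. These too overlap between the groups, since pair 1 lies between pairs 11 and 13.

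**Figure D1:**
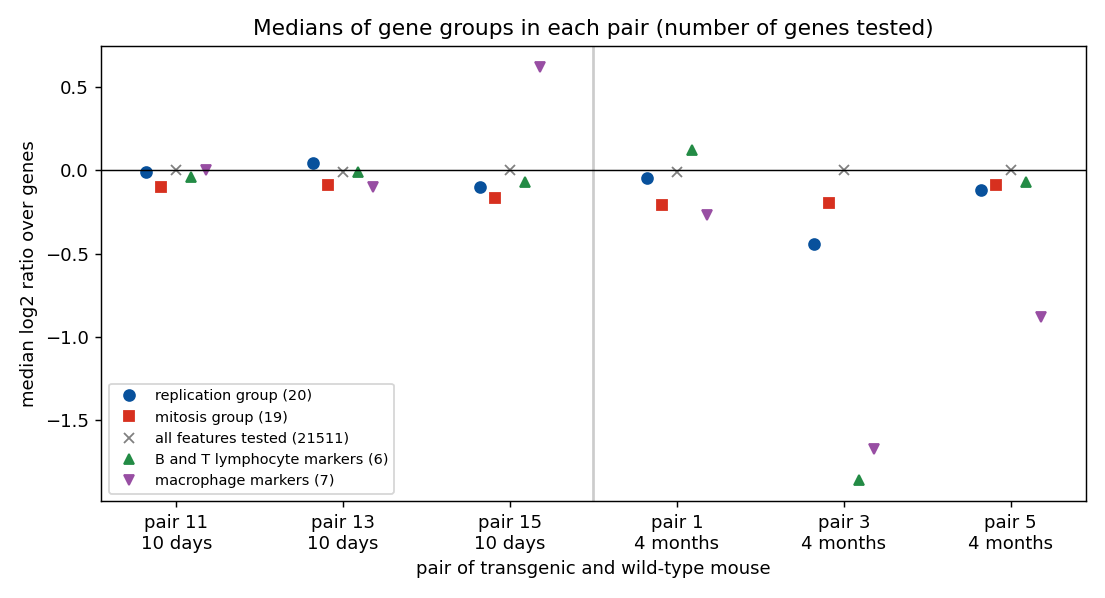
Median log2 ratio over genes (vertical axis) in each of the 6 pairs (horizontal axis). Shown are the replication group, the mitosis group, all features, B and T lymphocyte markers and macrophage markers. The mitosis group lies between -0.21 and -0.09 in every pair, while the replication group reaches -0.44 in pair 3, where the lymphocyte markers are at -1.86 and the macrophage markers at -1.67.

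Pair 3 also stood apart in lymphocyte and macrophage markers. All 6 tested B and T lymphocyte markers were negative there, from -5.18 to -0.04 with a median of -1.86, against medians of -0.07 to 0.12 in the other pairs. Cd79a and Cd79b, the signalling chains of the B cell receptor, were at -4.18 and -5.18. The Cd79a probe was dim, at percentile 3.0 of spot signal over probes, and that of Cd79b was at percentile 68.1. Cd3g, with a probe at percentile 80.7, was at -0.04. All 7 macrophage markers were negative in pair 3 (median -1.67, from -6.25 to -0.57) and in pair 5 (median -0.88, from -1.90 to -0.15). Their median was -0.27 in pair 1 and -0.10 to 0.62 at 10 days. Their part in the ratios of the replication genes was not tested. Other markers peaked in other pairs, hepatocyte markers at a median of 2.09 in pair 11 and adipocyte markers at 1.67 in pair 15. The 7 erythroid markers had a median of -0.03 in pair 3 and their lowest median, -0.56, in pair 13.

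Licensing and helicase genes had a median of -0.06 at 10 days and -0.33 at 4 months over 9 genes. Mcm3, a helicase subunit, had ratios of -0.29, -0.34 and -0.30 in pairs 11, 13 and 15 and of -1.75 and -0.85 in pairs 3 and 5. In pair 1 a single array measured it, with the transgenic sample in Cy3, at -1.18, which gives no pair value. In every other pair the Cy3 array was lower than the Cy5 array, from -0.40 against -0.19 in pair 11 to -1.28 against -0.41 in pair 5. The -1.18 therefore holds a dye effect that is not averaged out. Both 4-month pair values lie below all 3 at 10 days, and the Mcm3 ratio was negative on all 11 arrays with a value. Its mean was -0.31 ± 0.02 (SD, n = 3) at 10 days and -1.30 ± 0.64 (SD, n = 2) at 4 months. The 4-month mean had an SE of 0.21 and a limma adjusted p of 0.209 (unadjusted 0.000477). That SE, the p-values and the intervals given for Mcm3 rest on a moderated spread shared by both groups. The close 10-day values (SD 0.02) lower it, so it understates how far the 2 pairs at 4 months differed (SD 0.64). Without pair 3 only pair 5 remained, at -0.85, which leaves no spread of its own at 4 months. Over all pairs Mcm3 had the smallest adjusted p of any member, 0.0878; the average of its 2 group means was -0.81 with a 95% interval of -1.13 to -0.49. The difference between the groups was -0.99 (interval -1.63 to -0.35, adjusted p 0.935).

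Mcm6, another subunit of the ring, was at 0.08, 0.09 and -0.57 at 10 days and at -0.02, -3.49 and -0.43 in pairs 1, 3 and 5. Pair 3 alone is far down: its 2 arrays gave -3.87 and -3.12, and only 0.154% of features in that pair were as low or lower. The 4-month mean was -1.31 ± 1.90 (SD, n = 3; adjusted p 0.407), and -0.22 without pair 3. Mcm7 had ratios of 0.10, -0.16 and -0.55 at 10 days and 0.12, -1.27 and -0.98 at 4 months. It was low in pairs 3 and 5 and near 0 in pair 1, which overlaps the younger pairs (4-month mean -0.71 ± 0.73, adjusted p 0.336).

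The other helicase genes were not below -0.6 in any pair value. Mcm2 was at 0.92, -0.32 and -0.50 at 10 days and at -0.06, 0.19 and 0.11 at 4 months, with its highest and lowest values among the young pairs and a value above 0 in pair 3. The Mcm4 probe was dim, at percentile 7.9 of spot signal over probes. For Mcm4 the values were 0.04 and -0.16 in pairs 13 and 15 and -0.57, -0.38 and -0.06 in pairs 1, 3 and 5. By dye, its arrays ran from -0.45 to 0.76 where the transgenic sample was in Cy3, and -0.83 to -0.43 where it was in Cy5. Mcm5 gave -0.05, 0.01, -1.38 and -0.21 on single Cy3 arrays of pairs 11, 13, 3 and 5 and 0.55 on a Cy5 array of pair 1. These single arrays were not tested.

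**Figure D2:**
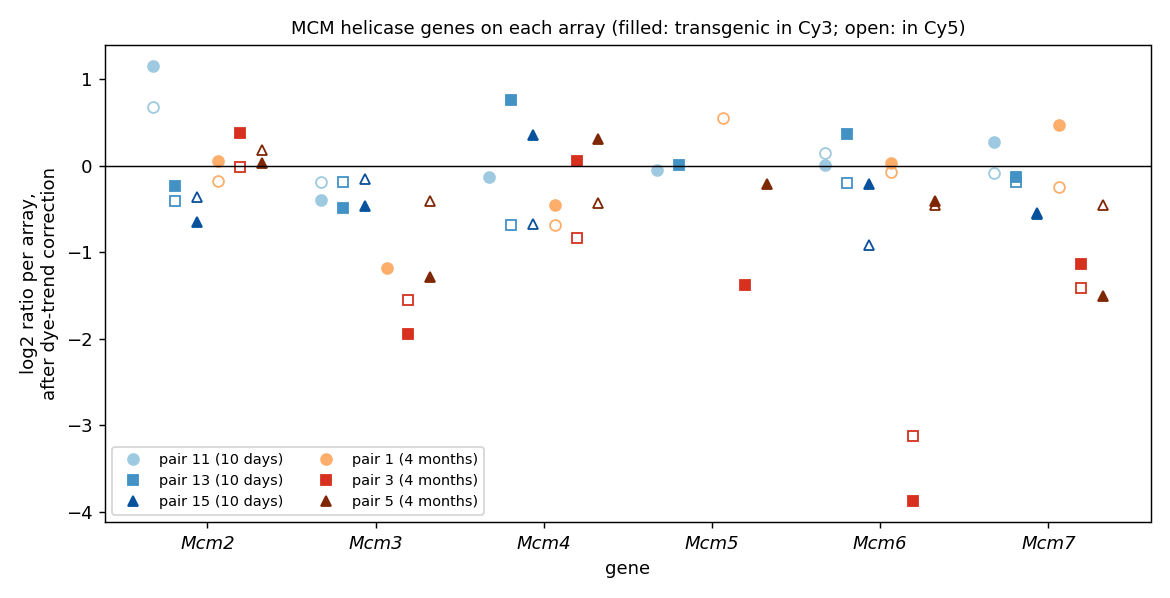
Log2 ratio after dye-trend correction on each array (vertical axis) for the 6 MCM helicase genes (horizontal axis), coloured by pair, with filled symbols where the transgenic sample was in Cy3 and open symbols where it was in Cy5. Both arrays of pair 3 are low for Mcm3, Mcm6 and Mcm7, with Mcm6 at -3.87 and -3.12, while Mcm2 is at 0.38 and -0.01.

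Loaders and activators of the helicase had smaller ratios. Cdc6, which loads it, was at -0.01, 0.05 and -0.34 at 10 days and -0.17, -0.58 and -0.24 at 4 months, with 4-month values that overlap the younger ones (4-month mean -0.33, adjusted p 0.364). Cdt1, the partner of Cdc6, stayed between -0.04 and 0.22 in all pairs but pair 3, where it was at -0.66. Cdc45 was between -0.15 and 0.34 and was highest in pair 3. Gins1, a subunit of the GINS complex, ran from -0.38 in pair 1 to 0.53 in pair 15.

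Among the 8 genes of DNA synthesis the median was 0.10 at 10 days and -0.14 at 4 months, and in pair 3 all 8 were negative, from -0.81 to -0.02. Rfc4, a subunit of the clamp loader, was at -0.49, -0.42 and -0.26 at 10 days and -0.12, -0.56 and -0.14 at 4 months. The 2 groups overlap, and the ratio was negative on 12 of 12 arrays, as was 0.410% of all probes with 12 values; counting either sign, 2.01% of those probes and 1 of 44 member probes (2.27%) kept a single sign on all arrays. The mean over all 6 pairs was -0.33 with an SE of 0.08 (adjusted p 0.151). Pcna, the clamp, was at 0.20, -0.15 and 0.45 at 10 days and 0.18, -0.14 and -0.30 at 4 months, on both sides of 0 in each group. By dye, its arrays ran from -0.88 to 0.31 in Cy3, where 5 of 6 were negative, and from 0.05 to 1.17 in Cy5, and the ranges overlap.

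Prim1, the primase subunit that starts new strands, was lowest in pair 3 at -0.81 and between -0.25 and 0.28 elsewhere. Rfc3, of the same clamp loader as Rfc4, was positive in 4 pairs (0.11 to 0.53) and negative in pairs 3 and 5 (-0.54 and -0.33). Its positive value in pair 1 averages arrays at -1.04 in Cy3 and 1.95 in Cy5, and that in pair 13 arrays at -0.07 and 0.28. Fen1, which trims the ends of lagging-strand fragments, was positive in 4 of 6 pairs (0.23 to 0.72) and was -0.34 in pair 15 and -0.02 in pair 3. Lig1, the ligase that joins those fragments, ranged from -0.44 to 0.48. The polymerase subunits Pola1 and Pole ranged from -0.21 to 0.10 and from -0.44 to 0.10, and the Pola1 probe was dim (percentile 8.5).

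Nucleotide supply genes varied without a shared direction. Rrm1, the large subunit of ribonucleotide reductase, was at -0.57, 0.14 and 0.34 at 10 days and at -0.30 and 0.34 in pairs 3 and 5. Rrm2, the small subunit, was at -0.59, 0.26 and 0.22 at 10 days and 0.65, -0.92 and -0.35 at 4 months. Both groups cross 0 for each gene, with pairs 11 and 3 the low ones. Tyms, thymidylate synthase, stayed between -0.31 and 0.14.

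**Figure D3:**
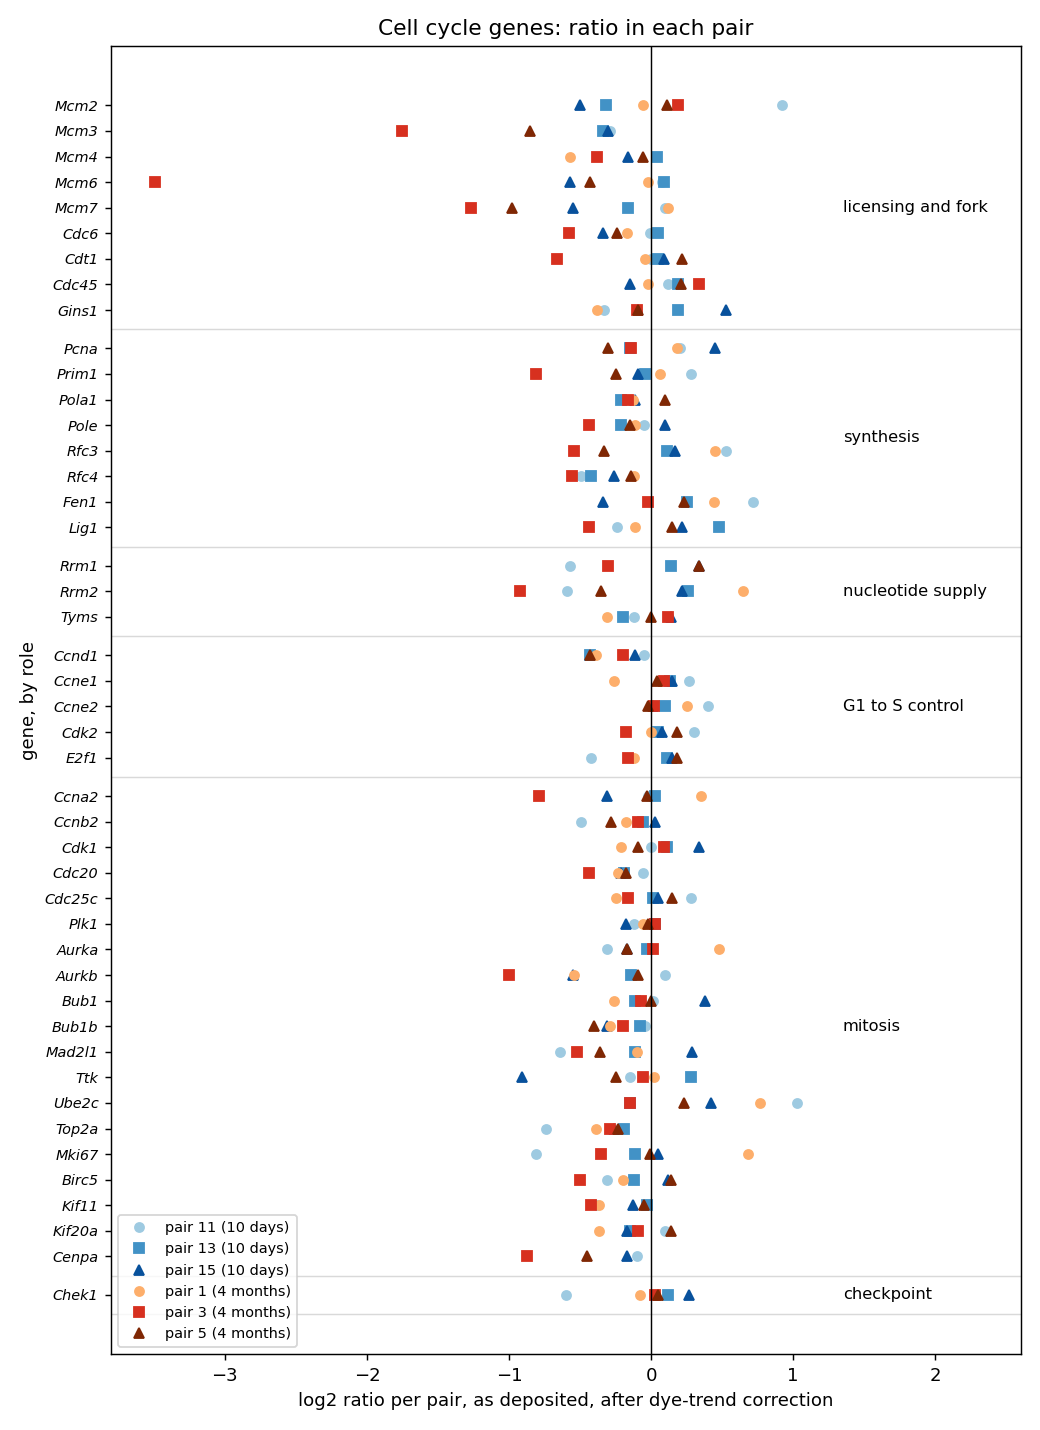
Log2 ratio in each pair (horizontal axis) for the 45 tested members (vertical axis), grouped by role; a symbol is 1 pair. Values at or below -1 before rounding occur only in pair 3, for Mcm3, Mcm6 and Mcm7, and the only one at or above 1 is Ube2c in pair 11, at 1.03.

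Genes that control entry into S phase gave medians of 0.14 at 10 days and -0.03 at 4 months over 5 genes. Ccnd1, the cyclin that links growth signals to the cycle, was at -0.05, -0.43 and -0.11 at 10 days and -0.39, -0.20 and -0.43 at 4 months. It was negative in all 6 pairs, the groups overlap, and the 4-month mean was -0.34 ± 0.12 (SD, n = 3; adjusted p 0.319). Of its 12 arrays 11 were negative, and in pair 11 the 2 arrays differed in sign, at -0.57 in Cy3 and 0.46 in Cy5. Ccne1, a cyclin of the start of S phase, was at 0.27, 0.13 and 0.15 at 10 days and -0.26, 0.09 and 0.04 at 4 months. It was the single gene of 41 members with 6 values whose groups did not overlap (2.44%, against 10.4% of all features). Its partner Cdk2 lay between -0.18 and 0.30, Ccne2 between -0.02 and 0.40, and the transcription factor E2f1 between -0.42 and 0.18. Cdk2 is the mean of 2 probes, whose arrays in pair 3 gave -0.33 and -0.51 against -0.02 and 0.16. Chek1, the checkpoint kinase of stalled forks, was at -0.60 in pair 11 and between -0.08 and 0.27 elsewhere.

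Mitosis genes had negative ratios in 15 of 19 at 10 days and 16 of 19 at 4 months, with medians of -0.14 and -0.16. Top2a, the topoisomerase that untangles sister chromosomes, was at -0.74, -0.19 and -0.26 at 10 days and -0.39, -0.29 and -0.23 at 4 months. All 6 pairs were negative, with pair 11 the lowest and the groups overlapping. The 2 arrays of Top2a nevertheless differed in sign in pairs 13, 15 and 3. They were at 0.25, 0.15 and -0.64 with the transgenic sample in Cy3, and at -0.63, -0.67 and 0.05 in Cy5. Its mean over all pairs was -0.35 with a 95% interval of -0.56 to -0.14 (adjusted p 0.152), and the groups differed by 0.09 (interval -0.32 to 0.50). Cenpa, the histone variant of centromeres, was at -0.10 and -0.17 in pairs 11 and 15 and at -0.87 and -0.45 in pairs 3 and 5. Pairs 13 and 1 had no value on the Cy3 array and were left out, and the array that remained for pair 1 was at 0.63. The 4-month mean of the 2 pairs was -0.66 ± 0.30 (SD; adjusted p 0.266).

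Aurkb, the kinase that corrects chromosome attachment, was at 0.10, -0.14 and -0.55 at 10 days and -0.54, -1.0 and -0.09 at 4 months, with its lowest value in pair 3, and overlapped between the groups (4-month mean -0.54 ± 0.45, adjusted p 0.329). Kif11, the motor that separates spindle poles, was negative in all 6 pairs, from -0.42 to -0.03. So were Cdc20, an activator of the anaphase-promoting complex, from -0.44 to -0.06, and Bub1b, of the spindle checkpoint, from -0.40 to -0.04. For Bub1b that sign rested on the Cy5 arrays (those with the transgenic sample in Cy5), which gave -0.65 to -0.44 against -0.20 to 0.48 in Cy3. Cdc20 was likewise negative on 6 of 6 Cy5 arrays but on 3 of 6 Cy3 arrays, and Kif11 on 6 of 6 Cy3 arrays but on 3 of 6 Cy5 arrays. With Rfc4, Ccnd1 and Top2a, these made 6 of the 41 members with 6 values that had a single sign in all pairs, all negative (14.6%, against 10.4% of all features in either direction).

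Ube2c, the ubiquitin-conjugating enzyme that works with the anaphase-promoting complex, was the mitosis gene with the highest ratios. It was at 1.03, -0.15 and 0.42 at 10 days and 0.77, -0.15 and 0.23 at 4 months, positive in 4 of 6 pairs with the groups overlapping (mean over all pairs 0.36, adjusted p 0.367). By dye, its arrays ran from 0.26 to 1.07 in Cy5 and from -0.79 to 1.47 in Cy3, where 3 of 6 were negative. The positive value of pair 5 averages arrays at -0.24 in Cy3 and 0.70 in Cy5. Mki67, the proliferation marker Ki-67, was at -0.81, -0.11 and 0.05 at 10 days and 0.68, -0.35 and -0.01 at 4 months. It shows no shared direction, and its arrays were at -1.13 to -0.05 in Cy3 and -0.49 to 1.57 in Cy5. Cdk1, the kinase that drives entry into mitosis, was at 0.00, 0.11 and 0.34 at 10 days and -0.21, 0.09 and -0.09 at 4 months. The Cdk1 probe was dim, at percentile 11.2 of spot signal. Plk1, which matures the spindle poles, was at -0.12, 0.03 and -0.18 and at -0.06, 0.03 and -0.02, near 0 throughout.

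The remaining 9 mitosis genes overlapped between the groups and had an unadjusted p above 0.05 in every comparison. Ccnb2, the B-type cyclin measured here, ran from -0.49 to 0.03, and the S and G2 cyclin Ccna2 from -0.79 in pair 3 to 0.35 in pair 1. Aurka, of the spindle poles, was at 0.48 in pair 1 and between -0.31 and 0.01 elsewhere. Spindle checkpoint genes included Mad2l1 (-0.64 to 0.29), Bub1 (-0.26 to 0.38) and Ttk, which was lowest in pair 15 at -0.91. Birc5, the survivin subunit of the Aurkb complex, ran from -0.50 to 0.14, the phosphatase Cdc25c from -0.25 to 0.28 and the cytokinesis motor Kif20a from -0.37 to 0.14.

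**Figure D4:**
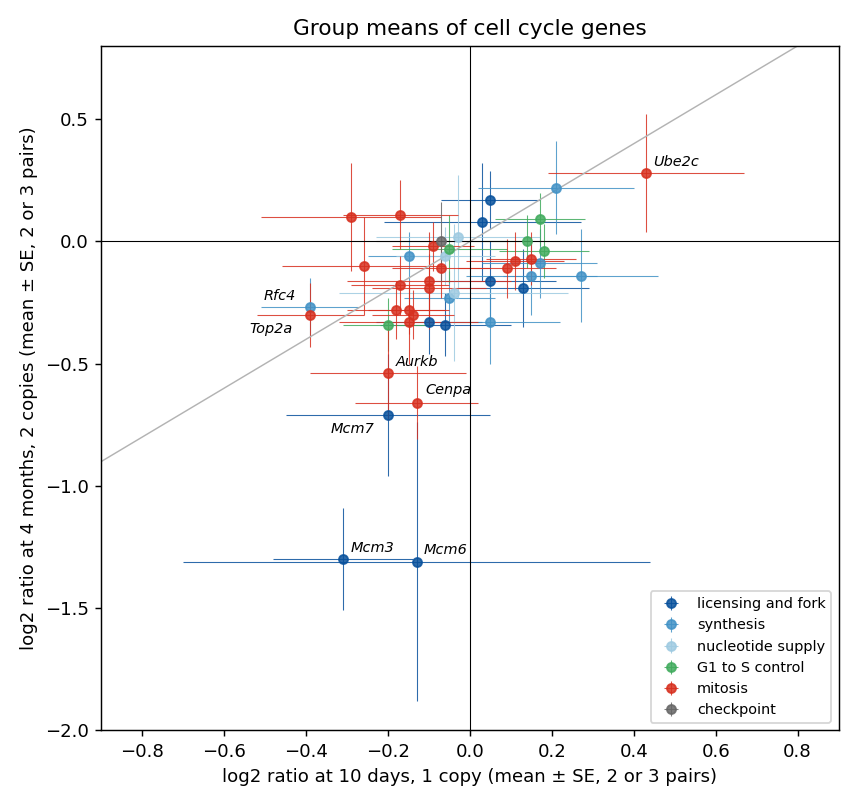
Mean log2 ratio at 10 days with 1 copy (horizontal axis) against that at 4 months with 2 copies (vertical axis) for the 45 members, coloured by role, with limma standard errors as bars and the line of equal ratios in grey. Most members lie near the origin, Mcm3 and Mcm6 lie at -1.30 and -1.31 at 4 months, and Rfc4 and Top2a lie at -0.39 at 10 days.

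The difference of 4 months minus 10 days was negative for 32 of 45 members (71.1%, against 50% of all features), with a median of -0.14. It was -0.22 over the replication group (14 of 20 negative) and -0.10 over the mitosis group (14 of 19), and without pair 3 these medians were -0.09 and -0.04. With 3 pairs a group the 95% intervals of the difference were wide, from -0.72 to 0.22 for Pcna, -1.33 to 0.31 for Mcm7 and -0.59 to 0.14 for Cdk1.

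Other genes of the same steps were counted in the same way. Of 32 further replication genes tested, 3 had an unadjusted p under 0.05 at 10 days (9.38%, against 8.33% of all features), all positive: the nuclease and helicase Dna2 at 0.57, Rpa3 of the single-strand binding complex at 0.38 and the dUTP hydrolase Dut at 0.37. Only the origin recognition subunit Orc1 did at 4 months (3.12%, against 12.3%), at -0.25. Their median was 0.03 at 10 days and -0.15 at 4 months, with 19 of 32 negative in pair 3. Of 33 further mitosis genes, 5 were under that limit at 10 days (15.2%, against 8.33%) and 4 at 4 months (12.1%, against 12.3%), in both directions. Kif2c, a motor that shortens microtubules, was at 0.53 and 0.78 in the 2 groups, while the separase Espl1 was at -0.36 and -0.47. The median of this list was -0.02 in each group, so it did not show the negative median of the 19 members. Over 18 inhibitors and G1 regulators the median was -0.12 and -0.09. No gene of these 3 lists passed the adjusted threshold. Cdkn1a, the inhibitor p21, was at -0.18, -0.17 and -0.50 at 10 days and at 0.36, 0.19 and -0.19 at 4 months.

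Dye orientation bears on single genes. Of 44 member probes with 12 values, 4 had arrays of the 2 orientations that did not overlap (9.09%, against 11.2% of all probes): those of Bub1b, Cdk1 and Pola1 and 1 of the 2 for Plk1. All arrays of an orientation carry the same date in their descriptions and the other orientation another date, so dye and whatever that date marks cannot be told apart. With only the arrays of a single orientation, limma called members that the averaged pairs did not. Over all 6 pairs these were Mcm3, Pola1 and Kif11 in Cy3 (6.52% of members, against 6.46% of all features) and 10 members in Cy5 (22.2%, against 15.9%), with no gene in both, and a dye effect of a probe does not cancel there. Between the 2 arrays of a pair, the member probes correlated at -0.32 to 0.70.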

How the data were processed

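The authors deposited 1 log2 ratio per spot for each of 12 arrays. The sources used here give neither their background subtraction and normalization nor the direction of the ratio. Array medians lay between -0.68 and -0.22 where the transgenic sample was in Cy3, and between 0.74 and 1.50 where it was in Cy5, so the values had not been centred. Spot signal was recovered from the whole numbers behind the ratios, and a loess curve on that signal (span 0.3) was subtracted from each array. Probes of a gene were averaged, then the 2 arrays of a pair where both had a value. Features with at least 2 pairs per group were fitted in limma 3.58.1 (R 4.3.3) with a mean per group. The fit had 4 residual and 3.85 prior degrees of freedom. Tests were two-sided with Benjamini-Hochberg adjustment and a threshold of 0.05. The number of arrays limits the precision.

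The members, the further lists and the markers were chosen with earlier results of these data known, and support nothing by themselves. Every member is accounted for, and the 8 with the smallest p in each comparison and the core replication and mitosis genes were described more fully. Group medians over genes were described without a test. The alternatives tried were median centring, the values as deposited, each dye orientation alone, probes on all arrays, no dim or near-saturated probes, the brightest probe, an ordinary linear model, a sex term and leaving out each pair.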

Additional observations from a re-analysis of the deposited data

How the results depend on the processing

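Members passed the adjusted threshold only with the values as deposited (1 at 4 months and 6 over all pairs) or with a single dye orientation (up to 10, over all pairs in Cy5). Using only Cy3 arrays (transgenic sample in Cy3) or only Cy5 arrays, where dye effects of probes do not cancel, the features passing were 31 and 222 at 10 days, 288 and 915 at 4 months and 1411 and 3439 over all pairs. Taking the values as deposited gave 18, 2532 and 5942, and 14 for the group difference, since uncentred arrays shift all features (by 0.28 over all pairs). Median centring without loess gave 0 over all pairs, the ordinary linear model 1 and a sex term 0, against 12. Leaving out each pair in turn gave 0 to 1 at 10 days, 0 to 16 at 4 months, 0 to 24 over all pairs and 0 to 6 for the difference, the highest without pair 5 in the last 3.

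The median of all members at 10 days was -0.13 with median centring, 0.07 as deposited, 0.03 in Cy3, -0.11 in Cy5 and -0.03 with a sex term. At 4 months it was 0.21 as deposited, -0.24 in Cy3 and -0.03 in Cy5, over all pairs 0.14 as deposited, and for the difference -0.08 centred, 0.10 as deposited, -0.31 in Cy3 and 0.03 in Cy5. For the replication group it was 0.08, 0.13, 0.15 and 0.01 as deposited at 10 days, at 4 months, over all pairs and for the difference, with 0.05 in Cy3 at 10 days and -0.42 in Cy3 for the difference. For the mitosis group the values as deposited were 0.05, 0.22, 0.14 and 0.11. In Cy3 the mitosis median was -0.04 at 10 days, -0.34 at 4 months and -0.33 for the difference, and in Cy5 -0.01 at 4 months, -0.04 over all pairs and 0.12 for the difference. The cause of these shifts was not tested, beyond the missing centring of the deposited values.

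Leaving out 1 pair moved the medians of all members over -0.13 to -0.04 at 10 days, -0.22 to -0.11 at 4 months, -0.15 to -0.05 over all pairs and -0.18 to -0.05 for the difference. The mitosis median ran from -0.17 to -0.06, -0.22 to -0.13, -0.21 to -0.09 and -0.16 to -0.04 in the same order, and that of the replication group from -0.05 to 0.02, -0.28 to -0.08, -0.15 to -0.04 and -0.27 to -0.09. The highest of these values came without pair 15 at 10 days and without pair 3 in the other comparisons. Each ratio compares a transgenic mouse with its littermate, so that comparison was paired. The 10-day and 4-month groups share no replicate numbers, so the comparison between them could not be paired.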
